A study of Homo sapiens with 4 samples.

Results

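A block of 718 GATA4 intervals on the long arm of chromosome 20, in and around band 20q13.2, is described here. Its members are the intervals of build hg19 whose start lies from 49.5 Mb up to, but not including, 55 Mb, and they make up 718 of the 1832 intervals of chromosome 20 (39.2%) and of the 21308 in the whole list (3.37%). The stretch was selected on the number of intervals it holds, so that number is a description and was not tested. The intervals come from 4 CUT&RUN libraries of PaTu8988S, an established human pancreatic adenocarcinoma cell line, for which the labels name no treatment or genetic change and which formed 1 group. Each library was made from 500000 cells with 10 ug of an antibody against GATA4 (MAB2606), and the labels do not say whether the 4 libraries came from separate cultures. The deposited list gives only the intervals common to the 4 libraries, with a chromosome, a start and an end. A spread between libraries, a signal strength and a read depth behind an interval are therefore unknown, and no p-value is given. A control library and a copy-number profile of these cells were not analysed here.

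GATA4 is a zinc-finger transcription factor that binds DNA at sites built around the letters GATA and acts in the development of endoderm, heart, stomach and pancreas. CUT&RUN maps such a protein by tethering a nuclease to it through an antibody and sequencing the DNA fragments that are cut free. ZNF217, the gene by which the block is labelled, encodes a zinc-finger protein that works with repressor complexes, and its part of 20q is a stretch known to be gained in breast and other carcinomas. In the order of RefSeq (GRCh38.p14), the protein-coding genes that come before ZNF217 are NFATC2 (a transcription factor activated through calcineurin), ATP9A (a P4-type ATPase), SALL4 (a zinc-finger factor of stem cells), ZFP64 (a zinc-finger protein) and TSHZ2 (a teashirt-type zinc-finger protein). After it come BCAS1 (named for its amplification in breast carcinoma), CYP24A1 (the enzyme that inactivates vitamin D hormone), PFDN4 (a prefoldin subunit), DOK5 (a docking protein of receptor tyrosine kinases) and CBLN4 (a cerebellin). An hg19 annotation was not used here, so apart from the stretch given for ZNF217, from 52.18 to 52.2 Mb, no interval was set against a gene. The ends of that stretch are approximate, and the gene may reach beyond it.

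The upstream sequence of ZNF217 is shown because it is the gene whose hg19 position was given with the choice of the block. It covers the 250 bases before the annotated start, from RefSeq, build GRCh38.p14, minus strand, chr20:53593840-53594089. These positions were not converted to hg19 and so were not set against the intervals.

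ZNF217 upstream: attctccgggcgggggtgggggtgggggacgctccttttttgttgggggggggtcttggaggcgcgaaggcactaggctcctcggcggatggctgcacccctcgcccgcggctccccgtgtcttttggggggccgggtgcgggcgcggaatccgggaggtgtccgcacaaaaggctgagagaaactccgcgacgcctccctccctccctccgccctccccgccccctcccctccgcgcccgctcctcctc

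This stretch is rich in G and C (72.4%). The search was for the word AGATAA, the word AGATAG, the word TGATAA and the word TGATAG on both strands, with overlapping matches each counted. None of the 4 occurred in it, and so no base is in capitals. That says only that these letters are not in this window. Of the 22 genes listed for this part of the chromosome, 14 had promoter entries, each of 300 bases (250 before to 50 after a start). At least 1 of the 4 GATA words occurred in an entry of ADNP, CSTF1, DOK5 and MC3R. Counted over entries that is 4 of 20, beside 24.97% of all 35116 promoter entries, so the share in the list lay near that of promoters in general. The sequences under the intervals were not looked up, and whether the ZNF217 window lies under one was not determined.

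The block was crowded compared with the rest of its chromosome, but on average not compared with the chromosome's end. It held 131 intervals per Mb over its 5.5 Mb, against 19.5 per Mb over the other 57.1 Mb between the first and last interval of chromosome 20, a ratio of 6.69. The longest stretch of the chromosome without an interval ran from 26317558 to 29439611. With that left out, the ratio was 6.33. Before the block there were 11.6 per Mb (569 intervals) and beyond it 68.5 per Mb (545 intervals). The intervals covered 10.4% of the block, 0.779% of the chromosome before it and 6.40% beyond it. When the rest of the chromosome was laid out in 10 stretches of about the block's length, outward from both limits, these held from 21 to 217 intervals with a median of 55. The last stretch of the chromosome, from 60.5 Mb on, was only 2.46 Mb long and held 328 intervals. At 133 per Mb it held about as many intervals per Mb as the block. They covered more of it, 14.3% beside 10.4% in the block. In windows of 1 Mb, the 3 fullest of chromosome 20 were nevertheless inside the block: 248 intervals from 50 to 51 Mb, 206 from 52 to 53 Mb and 145 from 51 to 52 Mb. The next was the window from 61 to 62 Mb with 139.

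**Figure D1:**
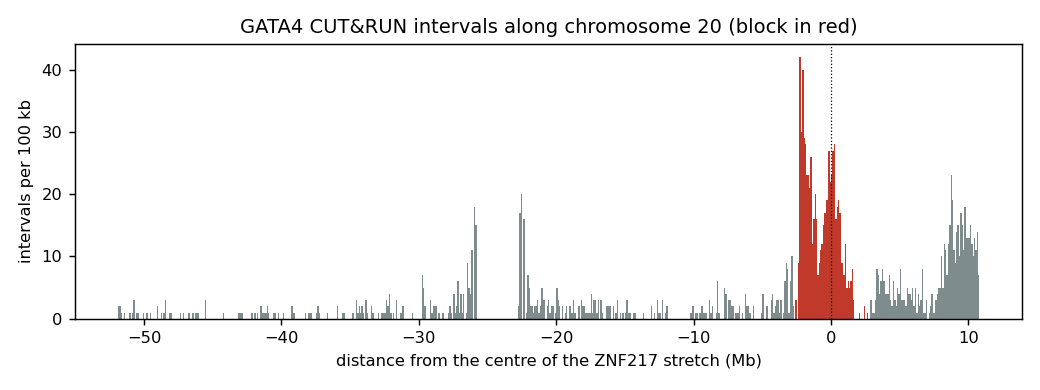
Intervals per 100 kb (vertical axis) along chromosome 20, plotted by distance in Mb from the centre of the ZNF217 stretch (dotted line); bars of the block are red and the others grey. The tallest bar of the block, 42 intervals, stands to the left of ZNF217, and a broad raised stretch lies at the right-hand end of the chromosome.

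The limits of the block lie in stretches free of intervals. The first member ran from 49609878 to 49610177 (299 bp) and the last from 54854663 to 54855006 (343 bp). The nearest interval outside the lower limit ran from 49465753 to 49466478 (725 bp), with 143 kb free of intervals up to the first member. The nearest outside the upper limit ran from 55004124 to 55004887 (763 bp), after a free stretch of 149 kb. Moving either limit by a few kb would thus add or remove few members. Farther out, the chromosome next to the lower limit was not sparse. The 500 kb before that limit held 27 intervals, while the whole chromosome before the block held 11.6 per Mb. The 500 kb after the upper limit held 11 intervals.

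Inside the block the intervals formed a profile with 2 crests, and ZNF217 lies at the lower one. Over consecutive windows of 500 kb from 49.5 Mb, the numbers were 54, 150, 98, 63, 82, 127, 79, 39, 22, 1 and 3. The first crest was the window from 50 to 50.5 Mb, where intervals covered 27.8% of the sequence. The trough was the window from 51 to 51.5 Mb, with 63 intervals and 8.18% covered. The second crest, from 52 to 52.5 Mb, had 127 intervals and 20.3% covered, and it contains the ZNF217 stretch. Of the members, 25% started by 50.39 Mb, 50% by 51.43 Mb, 75% by 52.35 Mb and 90% by 52.92 Mb, so few belong to the last 2 Mb.

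In windows of 100 kb the occupation ranged from 0 to 42 intervals, with a median of 12 and quartiles of 3 and 20.5. The fullest window, from 49.9 to 50 Mb, held 42 intervals that covered 41.6% of it, and the next, from 50.1 to 50.2 Mb, held 40. The 15 windows with 20 or more intervals together held 409 members (57.0%), and 10 of the 55 windows were empty. The window from 52.1 to 52.2 Mb, which ends with the ZNF217 stretch, held 22 intervals and ranked 13 of 55. The block is therefore fullest some distance from ZNF217: its first dense part begins 2.31 Mb before that gene's stretch.

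**Figure D2:**
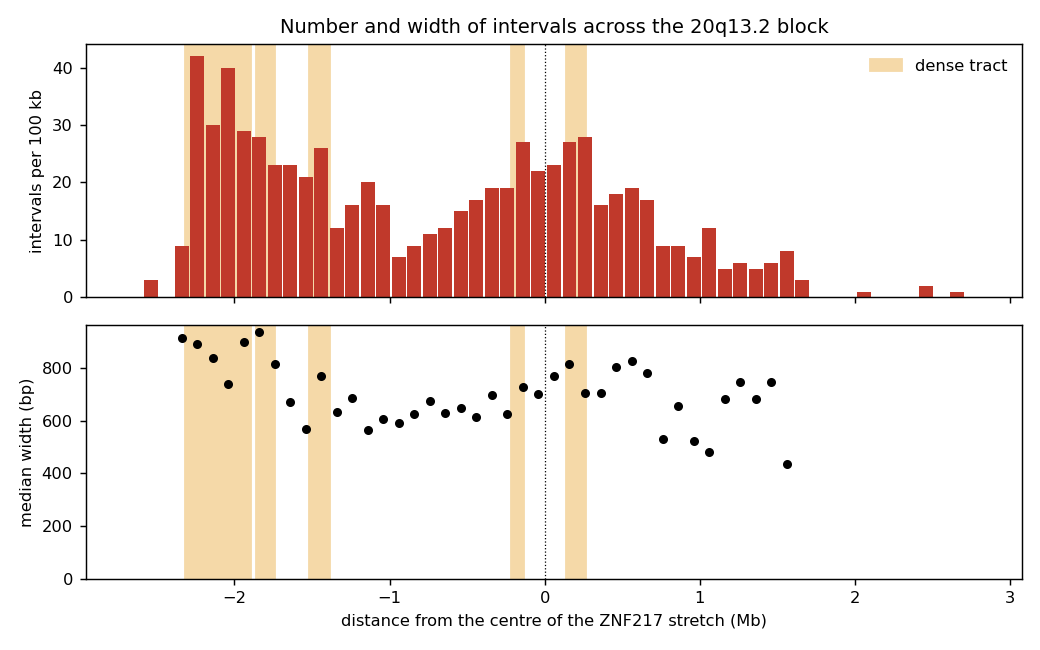
Upper panel: intervals per 100 kb across the block; lower panel: median interval width in bp for windows with 5 or more intervals; the horizontal axis is the distance in Mb from the centre of the ZNF217 stretch (dotted line), and shading marks dense tracts of 20 or more linked intervals. The numbers form a first crest of 42 about 2 Mb to the left of ZNF217 and a second, lower crest of 28 near it.

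The block began abruptly and thinned out slowly. In the 100 kb before position 49868615, where its first dense tract begins, there was 1 interval, and in the 100 kb after it there were 37. Over 500 kb on each side the numbers were 9 and 169. Part of this step follows from the choice of the point, since a dense tract by definition starts after a gap of over 10 kb. In fixed windows of 100 kb from 49.7 Mb, the numbers were 0, 9 and 42. At the far side no such step was seen: the last dense tract ended at 52456675, with 25 intervals in the 100 kb before its end and 23 in the 100 kb after. Beyond 53859122 the block was almost empty, with 4 intervals in the 1.14 Mb up to its upper limit, all between 343 and 551 bp wide, while the same length beyond the limit held 50. The longest gaps between members lay there, of 407 kb (54217249 to 54624464), 358 kb (53859122 to 54216700) and 229 kb (54625829 to 54854663). The next longest, 184 kb from 49626772 to 49810366, lay just before the abrupt start.

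Members were close together. The median gap between neighbours was 2.52 kb (quartiles 0.810 and 6.44 kb), against 26.1 kb (3.76 and 93.3) before the block and 5.52 kb (2.09 and 15.2) beyond it. Gaps of 1 kb or less made up 28.6% of gaps in the block (205 of 717), while there were 75 among 568 gaps before it and 73 among 544 beyond it (13.4%). Gaps of 100 bp or less numbered 43 of 717 in the block, 27 before it (4.75%) and 16 beyond it (2.94%). Before the block, most gaps of either class lay from 25738712 to 29832991, around the longest interval-free stretch. They are thus not typical of the chromosome before the block. Joining intervals no more than 1 kb apart left 513 in the block, of which 132 were made of 2 or more members. The longest joined run, chosen after its length was seen, went from 49969027 to 49979078 with 7 members in 10051 bp.

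Linked across gaps of up to 10 kb, the members formed 51 clusters of 3 or more, which held 638 of them (88.9%), and 28 members (3.90%) stood alone. Before the block 49.7% of intervals stood alone and beyond it 18.0%. Clusters of 20 or more, called dense tracts here, numbered 5 and held 288 members (40.1%) on 16.3% of the block's length. That share depends on the limits set: linking across 5 kb gave 9.75%, linking across 20 kb gave 83.6%, and counting clusters of 10 or more gave 64.3%. The largest ran from 49868615 to 50295608 with 149 intervals, covering 33.7% of its 427 kb. It was followed after 32.2 kb by a tract from 50327847 to 50453003 with 41 intervals, and then by one from 50669681 to 50809221 with 35. These 3 tracts lie on the first crest and on both of its flanks. The other 2 lay on either side of the ZNF217 stretch, from 51976004 to 52053896 with 26 intervals and from 52328121 to 52456675 with 37. Just under the limit were 2 clusters of 19 intervals, from 51026680 to 51107109 and from 52209521 to 52272202. The remainder of chromosome 20 had 2 dense tracts before the block, with 64 intervals. They ran from 26259383 to 26317558 and from 29580449 to 29638819, on either side of the chromosome's longest interval-free stretch. Beyond the block there were 0, and the largest cluster held 18. The end of the chromosome, with about as many intervals per Mb as the block, had no dense tract either. Its median gap was 3.61 kb and 19.0% of its gaps were 1 kb or less, beside 28.6% in the block. Gaps over 20 kb were also more common there, at 7.03% beside 4.32%, so both the shortest and the longest gaps differed in share.

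**Figure D3:**
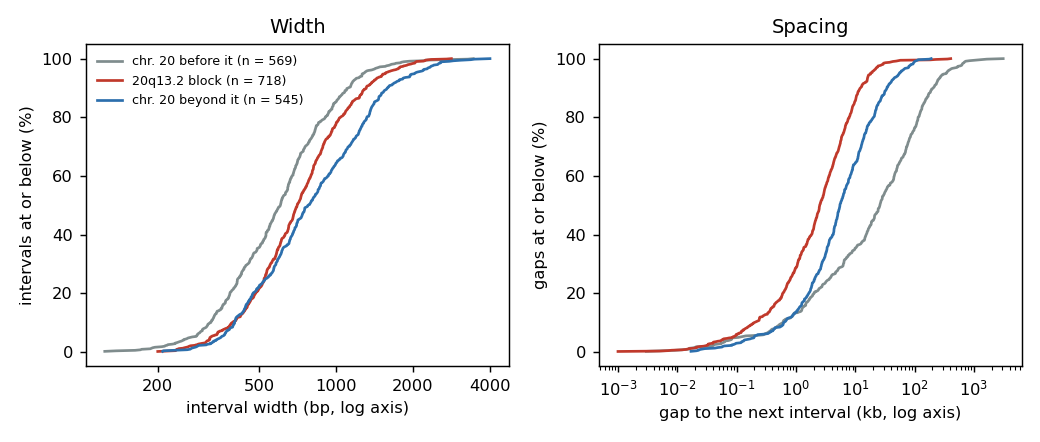
Cumulative share of intervals by width in bp (left, log axis) and of gaps between neighbouring intervals by length in kb (right, log axis) in the block (red), on chromosome 20 before it (grey) and beyond it (blue). The gap curve of the block lies to the left of both others (median 2.52 kb), while its width curve lies between them (median 704 bp).

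The intervals of the block were of moderate width. The median was 704 bp, with quartiles of 522.5 and 957.75 bp and a range from 200 to 2829 bp. The rest of chromosome 20 had a median of 672 bp, but its parts lay on both sides of the block, with 605 bp before it and 779 bp beyond it. The order-statistic 95% intervals of these medians were 680 to 733 bp in the block, 569 to 633 bp before it and 730 to 844 bp beyond it. They treat intervals as independent and ignore likeness between neighbours, so they may be too narrow. They hold no spread between libraries. Intervals of 2 kb or more were 12 of 718 in the block (1.67%), 0.879% before it and 5.32% beyond it. Against the median of the whole list, 585 bp, 474 members (66.0%) were wider. Against the end of chromosome 20, about as dense on average, the difference was larger. Its median width was 939 bp (quartiles 616.5 and 1371 bp), and 7.62% of its intervals were 2 kb or more. Crowding in the block was therefore not accompanied by the widest intervals of the chromosome. The densities were alike only as averages, since that of the block includes its sparse last part. From its first to its last dense tract the block held 216 intervals per Mb.

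Members in the crowded parts of the block were wider at the median, with exceptions along its length. Members in dense tracts had a median of 816 bp (quartiles 582.5 and 1131.5 bp), against 651.5 bp (493.5 and 850 bp) for the 430 others. The windows of 500 kb had medians of 905 bp at the start of the block, 842.5 bp at the first crest, 596 bp in the trough and 724 bp at the second crest. Width did not follow number beyond there: the window from 52.5 to 53 Mb had fewer intervals than the second crest (79) and a larger median (779 bp). The windows from 53 to 53.5 Mb (39 intervals, 605 bp) and from 53.5 to 54 Mb (22 intervals, 652.5 bp) were sparser than the trough and had larger medians. Over the 40 windows of 100 kb with 5 or more intervals, Pearson's r between number and median width was 0.52 and Spearman's rho 0.51. These are descriptions across neighbouring windows of 1 list, which share all libraries, and the part of read depth in them was not tested.

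Closeness to a neighbour showed the same ordering. Members with a neighbour within 1 kb (337) had a median width of 775 bp, those with the nearest at over 1 to 5 kb (278) 695.5 bp, those at over 5 to 20 kb (96) 613 bp and the 7 beyond 20 kb 608 bp. The quartiles of these classes overlapped throughout. Before the block no such ordering was seen, with 569, 608, 652 and 564.5 bp in the same classes. Most of the 113 intervals in the closest class there lay around the chromosome's longest interval-free stretch. The median of 569 bp thus describes mainly that part, and the ordering without it was not tested. Beyond the block the medians were 869.5, 900, 684 and 579.5 bp. Intervals farther than 20 kb from any other thus had medians from 564.5 to 608 bp in the 3 parts, the last of them over 7 members, while at 1 kb or less they went from 569 to 869.5 bp, with quartile ranges that overlapped.

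**Figure D4:**
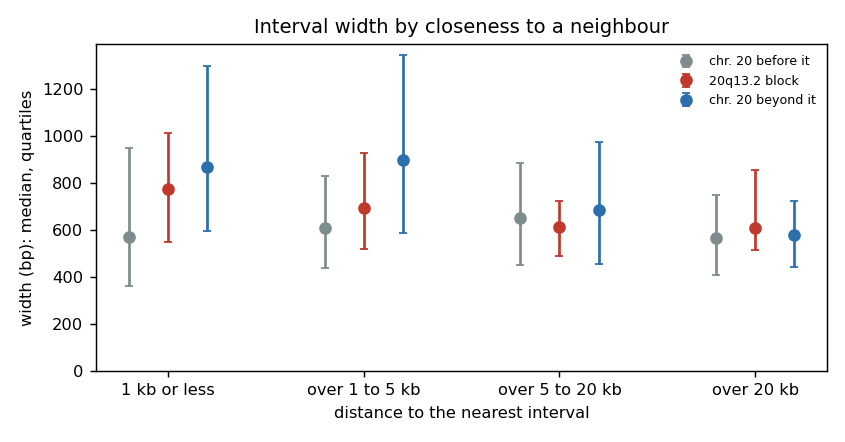
Interval width in bp (points are medians, bars the quartiles) by distance to the nearest interval, in the block (red), before it on chromosome 20 (grey) and beyond it (blue). In the block the medians go from 775 bp at 1 kb or less to 608 bp at over 20 kb, and all quartile ranges overlap.

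Of the 10 widest members, 7 lay in dense tracts and 3 outside them, while 40.1% of all members lay in such tracts. The widest ran from 50719454 to 50722283 (2829 bp) and the next from 49932590 to 49935297 (2707 bp), the former in the third of these tracts along the block and the latter in the largest. A further 4 lay in the largest tract as well: one of 2046 bp at 50108782 to 50110828, one of 2227 bp at 50162799 to 50165026, one of 2056 bp at 50233809 to 50235865 and one of 2233 bp at 50282391 to 50284624. The tract before ZNF217 held 1, of 2285 bp, at 51992568 to 51994853. The 3 outside any dense tract were all beyond ZNF217: one of 2063 bp at 52521070 to 52523133, one of 2359 bp at 52788644 to 52791003 and one of 2199 bp at 53090891 to 53093090. Of the 5 narrowest, 4 lay in dense tracts as well, with 216 bp at 50442181 to 50442397, 235 bp at 50332036 to 50332271, 236 bp at 50778852 to 50779088 and 237 bp at 50043422 to 50043659. The narrowest of all, from 49623075 to 49623275 (200 bp), was among the few members before the abrupt start. Dense tracts thus contained extremes of both kinds.

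The ZNF217 stretch itself carried 7 intervals within 20 kb, covering 22.8% of it. The first, of 382 bp at 52186326 to 52186708, stood apart from the others by 4.06 kb. It was followed by intervals of 804 bp at 52190772 to 52191576, 522 bp at 52192201 to 52192723 and 450 bp at 52193147 to 52193597. The last 3 measured 334 bp at 52194266 to 52194600, 462 bp at 52196263 to 52196725 and 1601 bp at 52197816 to 52199417. Of these, 5 were narrower than the median of the block, and the median of the 7 was 462 bp. The widest lay at the high end of the stretch, 583 bp short of 52.2 Mb. ZNF217 is read on the minus strand, so its start is at the high end of the gene. Whether this interval or one beyond the stretch covers an annotated start was not determined. Laid over the whole block, windows of the same 20 kb held a median of 2 intervals and at most 11. Of 275 such windows, 13 held more than 7 and 12 held 7, the ZNF217 window included, so its number was high for the block without being its highest.

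Wider intervals flanked the stretch on both sides. The nearest before it ran from 52176055 to 52177613 (1558 bp) and was 8.71 kb from the first of the 7. The nearest after it ran from 52209521 to 52211279 (1758 bp), 10.1 kb from the last, and opens the cluster of 19 intervals that ends at 52272202. The 100 kb before the stretch held 18 intervals with a median width of 731 bp and the 100 kb after it 23 with a median of 769 bp. The nearest dense tracts ended 126 kb before the stretch and began 128 kb after it. At the 10 kb limit the ZNF217 stretch thus lies between dense tracts, with its 7 intervals in a cluster of 13 from 52162647 to 52199417. That result rests on the limit, since the gap of 10.1 kb after this cluster only just exceeds it. Linked across up to 20 kb, the stretch falls inside a dense tract.

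**Figure D5:**
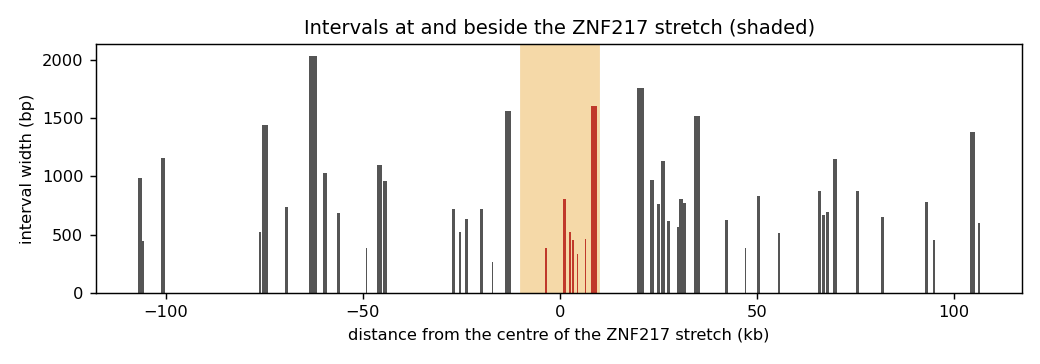
Intervals within 100 kb of the ZNF217 stretch (shaded), drawn to scale by distance in kb from its centre, with height showing interval width in bp; red bars overlap the stretch. The tallest of the 7 red bars, 1601 bp, stands at its right-hand end.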

How the data were processed

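The data are 1 deposited list of intervals, which the labels describe as common to the 4 libraries. Per the submitters' processing notes, the authors used SEACR, HOMER and build hg19; versions, parameters and how an interval was judged common were not stated in the labels or the file. The deposited positions are in bp, with no score, signal or count, and widths are end minus start, so a width may be 1 bp off. Depth is unknown.

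Members, clusters (gaps up to 10 kb), windows, gaps and widths were computed in Python 3.11.15 (numpy 2.4.6, pandas 2.3.3, scipy 1.17.1, matplotlib 3.10.9), with functions tested on simulated data. Spans run from the first to the last interval of chromosome 20. Motif words were searched in RefSeq promoter sequences. Intervals of 1 pooled list are not replicates, so nothing was tested. The intervals named were the 10 widest, the 5 narrowest, those at the limits, the ends of tracts and those at ZNF217. The block and the lists were chosen with earlier results of these data known. Planned work on motifs and genes under intervals needs an hg19 genome, which was not used here.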

Additional observations from a re-analysis of the deposited data

How the results depend on the processing

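Of 29 recomputed values, 11 stayed within 1.5 times (counts) or within their 95% interval, 16 moved further and 2 reversed. These 95% intervals treat intervals or windows as independent, so they may be too narrow. For the width difference, that of the block's median was used. The comparison of widths with the rest of chromosome 20, a median difference of 32 bp, reversed to -26.5 bp without dense tracts on both sides and to -75 bp against the chromosome beyond the block only; it was 99 bp against the chromosome before it and 110.5 bp after joining intervals within 1 kb, which by itself widens crowded intervals. The density ratio of 6.69 was 5.07 without dense tracts and 5.51 after joining. It was 6.33 without the longest interval-free stretch, 1.91 against the chromosome beyond the block only and 11.3 against that before it. The ratios of this last sentence were not planned and were chosen after seeing the data, as was the comparison with the end of the chromosome. Members at or above the median width of the list numbered 476 (86.5 per Mb), and from the first to the last dense tract there were 216 per Mb. Clusters of 3 or more numbered 83 with a linking distance of 5 kb and 21 with 20 kb. Dense tracts numbered 2 with 5 kb, 17 with a limit of 10 intervals and 1 with a limit of 50; with 20 kb there were again 5, but they held 83.6% of members in place of 40.1%. Empty windows were 18.2% at 100 kb, 4.55% at 250 kb and 0% at 500 kb. Leaving out a library could not be done on a pooled list, and motif and gene alternatives were not run. No paired analysis was possible because the list is pooled over the libraries. With no depth given, stretches without a member cannot be read as free of GATA4.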
